A study of Rattus norvegicus with 3 samples.

Results

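Ascl5, also called AmeloD, and the Sall genes Sall1, Sall2 and Sall3 encode transcription factors, and their RNA was measured by sequencing in 3 populations of the rat enamel organ. The 4 genes were taken by symbol from a deposited table of 16516 genes. They were chosen because Ascl5 and Sall3 showed some of the largest falls in that table on leaving the cervical loop, and Sall1 and Sall2 are the other Sall genes listed with them. The groups were cells of the cervical loop, secretory ameloblasts and maturation ameloblasts, all dissected from enamel organs of Wistar Hannover rats. The labels name 5 rats and no treatment or altered allele in any group, and give no ages. Per the labels, the cervical loop library of 1 rat was left out because its RNA integrity number was below 7. The files hold 1 mean per gene and stage, so no standard deviation can stand beside a level, and the replicate error enters only through the p-values that the authors deposited.

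Ameloblasts are the epithelial cells that make enamel. In the continuously growing rodent incisor they arise in the cervical loop, where epithelial progenitors divide, and then secrete the enamel matrix and later mature it. Ascl5 is a basic helix-loop-helix (bHLH) factor of the Achaete-scute family, known in the mouse from dental epithelium, where it lowers E-cadherin and favours cell movement. Factors of this kind bind DNA as pairs with E proteins, and Id proteins hold E proteins off DNA. Sall proteins are zinc finger factors related to the fly gene spalt, and they can repress transcription by recruiting the NuRD complex, which removes acetyl groups from histones and remodels nucleosomes.

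The stage labels were checked against marker genes. Secretory markers (Ambn, Amelx, Enam and Mmp20) summed to 2920.1, 112877 and 5621 in cervical loop, secretory and maturation means, and 5 maturation markers (Odam, Amtn, Klk4, Wdr72 and Slc24a4) to 83.8, 554 and 5570.1. Markers of other cells, summed by list, had signal in every population, though the odontoblast marker Dspp had a mean of only 0.0701 in maturation. The 10 mesenchyme markers summed to 9984, 10594 and 14258, the 8 myeloid markers to 234, 199 and 686, and the 6 odontoblast and bone markers to 374, 150.3 and 135 in the same stage order. The unit of the means is not stated and may not be per length, so levels are compared between stages and not between genes. An authors' mean of 0.1 or less is treated here as the floor, and no fold is given against it. In such dissected tissue, fewer cells of a type and less RNA per cell cannot be told apart.

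Ascl5 was measured mainly in the cervical loop population. Its mean in the authors' deposited table was 19.4 in the cervical loop, 0.138 in secretory ameloblasts and 0.0595 in maturation ameloblasts. The secretory mean was 0.714% of the cervical loop mean, just above the floor, and the maturation mean lay below the floor. With 1 added to each mean, Ascl5 was 17.9-fold lower in secretory and 19.2-fold lower in maturation ameloblasts than in the cervical loop. These differences are those on which the gene was chosen, so they are given without a test. Between maturation and secretory ameloblasts, a contrast the choice did not use, the means of 0.0595 and 0.138 in the authors' deposited table did not differ past the threshold of 0.05 (adjusted p = 0.267).

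Sall3, known in human cells to bind the DNA methyltransferase DNMT3A, had nearly the same course. Its mean in the authors' deposited table was 24.6 in the cervical loop, 0.195 in secretory and 0.0766 in maturation ameloblasts. The secretory mean was 0.792% of the cervical loop mean, and the maturation mean was below the floor. With 1 added to each mean it was 21.5-fold lower in secretory and 23.8-fold lower in maturation ameloblasts than in the cervical loop, again as a description of what chose the gene. Maturation against secretory ameloblasts (0.0766 and 0.195 in the authors' deposited table) gave an adjusted p of 0.674 for Sall3.

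Among all genes with positive means, Ascl5 ranked 2 and Sall3 ranked 3 from the lowest secretory to cervical loop ratio. The genes on either side were Golga7b, with secretory and cervical loop means of 0.0476 and 8.29, and Cartpt, a neuropeptide gene, with 0.0533 and 5.79 in the authors' deposited table. The secretory means of both these neighbours lie below the floor, so this order is a description of the deposited means alone. With 1 added to each mean the ranks were 5 for Ascl5 and 3 for Sall3. For maturation against cervical loop the ranks with 1 added were 19 for Ascl5, 14 for Sall3 and 22 for Sall1, and no rank by ratio is given because their maturation means lie below the floor.

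The upstream windows of Ascl5 and Sall3 are shown because the means of these genes had nearly the same course. Both sequences are RefSeq promoter windows of build GRCr8, cut to the 250 bases before the annotated start, whereas the submitters' processing notes name the older build rn6. Of the 4 genes, 2 had an entry. The Ascl5 window lies at chr13:50043270-50043519 on the + strand, and the Sall3 window at chr18:76700906-76701155 on the - strand.
Ascl5: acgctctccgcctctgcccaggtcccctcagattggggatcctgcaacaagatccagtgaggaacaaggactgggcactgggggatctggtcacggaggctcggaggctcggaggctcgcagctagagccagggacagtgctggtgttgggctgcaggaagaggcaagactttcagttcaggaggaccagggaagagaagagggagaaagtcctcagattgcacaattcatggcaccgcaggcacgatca
Sall3: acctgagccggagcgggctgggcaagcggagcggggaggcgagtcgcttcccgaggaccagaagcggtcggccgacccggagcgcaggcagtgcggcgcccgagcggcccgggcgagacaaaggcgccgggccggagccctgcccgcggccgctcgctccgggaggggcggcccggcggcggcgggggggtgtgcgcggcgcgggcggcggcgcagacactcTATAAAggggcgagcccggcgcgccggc
Capitals mark the motif TATAAA, searched on the gene's strand, which begins 28 bases before the start of Sall3 and is absent from the Ascl5 window. It occurs in 8.06% of 33469 RefSeq promoter windows of the same length. Neither window holds the E-box CANNTG, the core bound by bHLH factors, which reads the same on both strands and occurs in 65.5% of the windows. The windows differ in base composition, with 59.2% G and C in Ascl5 and 80.8% in Sall3, against a median of 51.2%.

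**Figure D1:**
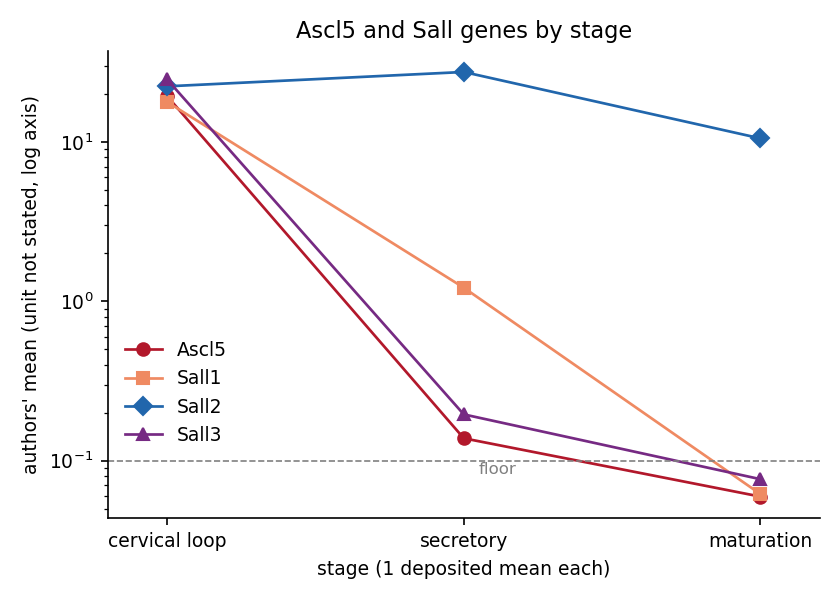
Authors' means of Ascl5, Sall1, Sall2 and Sall3 (vertical log axis, unit not stated) in cervical loop, secretory and maturation populations, 1 deposited mean per point, with the floor of 0.1 as a dashed line. Ascl5, Sall1 and Sall3 end below the floor in maturation (0.0595, 0.0617 and 0.0766), while Sall2 ends at 10.5.

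Sall1, whose human counterpart is mutated in Townes-Brocks syndrome, was also lower outside the cervical loop. Its mean in the authors' deposited table was 17.8 in the cervical loop, 1.22 in secretory and 0.0617 in maturation ameloblasts. The secretory mean was 6.83% of the cervical loop mean, a larger remainder than the 0.714% and 0.792% of Ascl5 and Sall3, though these shares carry no error and their difference was not tested. Sall1 was lower in secretory ameloblasts than in the cervical loop, 14.6-fold from the means of 1.22 and 17.8 in the authors' deposited table (adjusted p = 0.01). With 1 added to each mean that fold was 8.49. Maturation ameloblasts also had less Sall1 than the cervical loop, 0.0617 against 17.8 in the authors' deposited table, or 17.7-fold lower with 1 added (adjusted p = 0.00137). Maturation and secretory ameloblasts, with means of 0.0617 and 1.22 in the authors' deposited table, did not differ past the threshold (adjusted p = 0.115).

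Sall2, whose loss causes coloboma of the eye in humans, had a different course. Its means in the authors' deposited table were 22.3 in the cervical loop, 27.5 in secretory and 10.5 in maturation ameloblasts. The ratio of the secretory to the cervical loop mean, 1.23 in the authors' deposited table, did not pass the threshold (adjusted p = 0.0766). Its log2 value of 0.30 turned to -0.19 when each stage was divided by the sum of its means. Sall2 fell in maturation ameloblasts, 2.61-fold against secretory ameloblasts (10.5 and 27.5 in the authors' deposited table, adjusted p = 0.000355). Against the cervical loop it fell 2.12-fold (10.5 and 22.3 in the authors' deposited table, adjusted p = 0.000377). The order of its levels was therefore secretory, cervical loop, maturation, in which the first pair of neighbours did not differ past the threshold and the second did.

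For maturation against secretory ameloblasts, 1 of the 4 genes passed (Sall2, lower), where 42.9% of all genes passed in either direction and 21.1% passed as lower. For secretory against cervical loop, 3 of 4 were lower and past the threshold, where 25.2% of all genes were, and for maturation against cervical loop 4 of 4 were, where 33.7% of all genes were. The last 2 counts include Ascl5 and Sall3, which were chosen on those contrasts. The comparisons share stages, and the median difference of log2(mean + 1) over all genes was -0.09 for both later stages against the cervical loop and 0.00 between them.

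**Figure D2:**
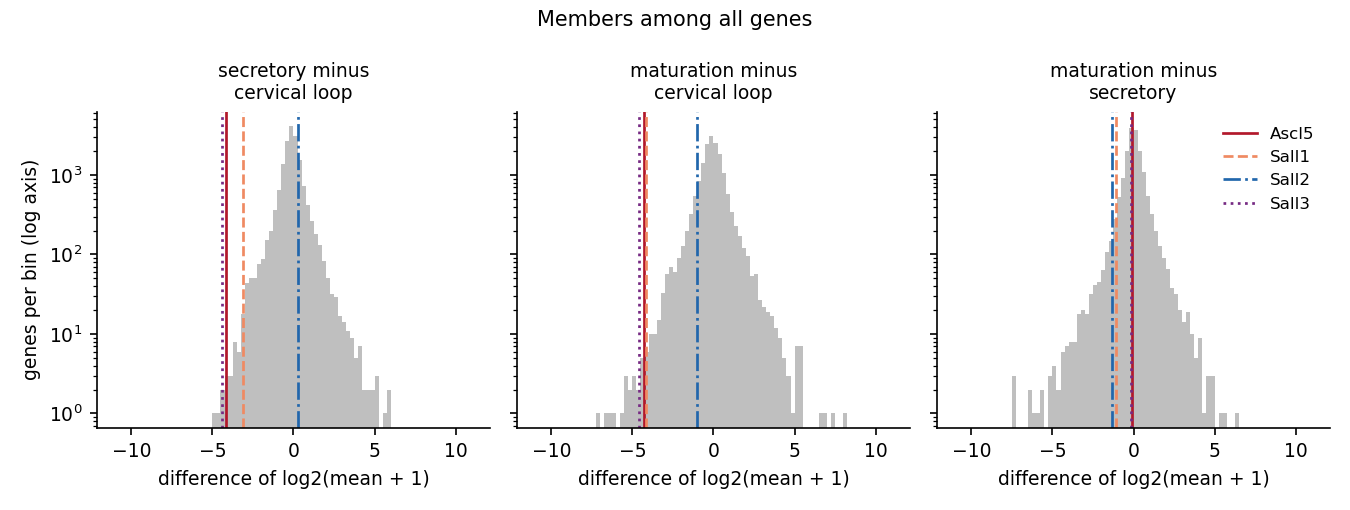
Histograms of the difference of log2(mean + 1) over 16516 genes (genes per bin, log axis) for the 3 pairs of stages, with a vertical line for each of Ascl5, Sall1, Sall2 and Sall3. Against the cervical loop, Ascl5 and Sall3 lie in the lower tail at -4.16 and -4.42 in secretory and at -4.27 and -4.57 in maturation, while for maturation minus secretory they lie at -0.10 and -0.15 and Sall2 at -1.30.

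Transcripts were resolved for Sall2 alone, and the other 3 genes had no rows in the deposited isoform tables. Transcript Sall2-202 had the larger means at every stage, in a unit that may not be per length. Its means in the authors' deposited table for maturation against secretory were 9.46 in maturation and 25.9 in secretory ameloblasts (FDR = 0.0225), where 17% of 9949 transcripts passed. It was also lower in maturation than in the cervical loop, 9.46 and 21.2 in the authors' deposited table (FDR = 0.0289), where 25.1% passed. Secretory against cervical loop means of 25.8 and 21.0 in the authors' deposited table did not pass (FDR = 0.538, against 16% of transcripts that passed). Sall2-201 had means of 1.20 in maturation and 1.87 in secretory ameloblasts in the authors' deposited table (FDR = 0.207). Its means were 1.20 in maturation and 1.26 in the cervical loop (FDR = 0.645), and 1.79 in secretory and 1.12 in the cervical loop (FDR = 0.25), in the authors' deposited table. Sall2-201 thus made up 11.3% of the Sall2 transcript means in maturation and 6.73% in secretory ameloblasts. The test for a change in isoform make-up did not pass for any pair in the authors' deposited table (FDR = 0.707 between maturation and secretory, 0.449 between maturation and cervical loop, and 0.899 between secretory and cervical loop populations), and 1.8%, 2.79% and 1.19% of genes passed it for these pairs. The shares of Sall2-201 have no error of their own and may depend on transcript length.

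**Figure D3:**
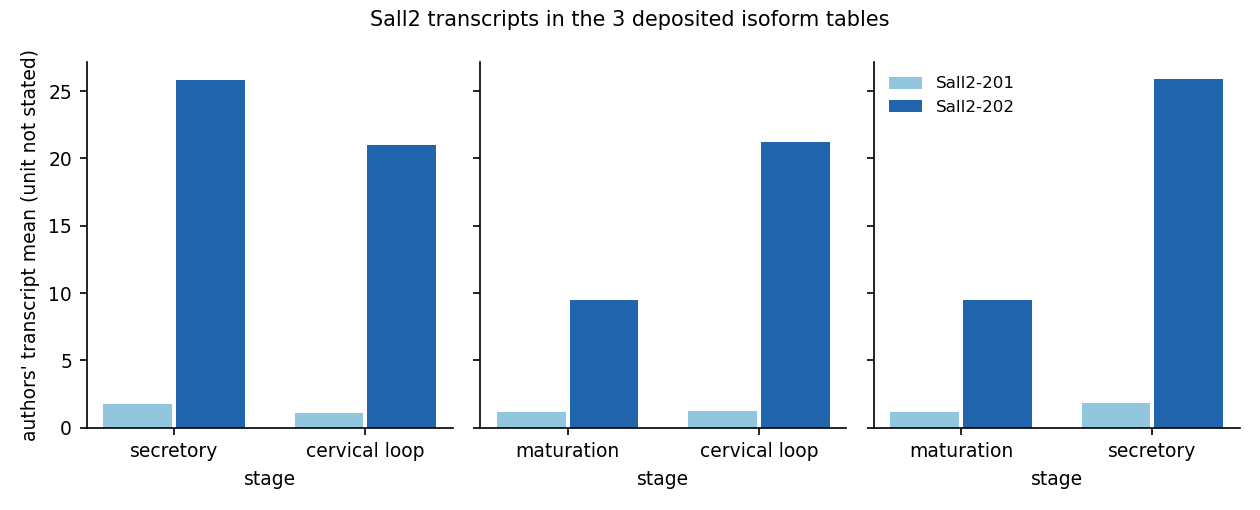
Authors' means of the transcripts Sall2-201 and Sall2-202 (bars, unit not stated) in the 3 deposited isoform tables, 1 panel per pair of stages. Sall2-202 stands at 9.46 in maturation against 25.9 in secretory and 21.2 in cervical loop populations, while Sall2-201 stays between 1.12 and 1.87.

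Genes with the most similar course were sought by the distance between log2(mean + 1) values over the 3 stages, each gene centred on its own mean, among genes whose largest stage mean was at least 1. Only 3 means enter each distance, so it is a description and carries no p. Which cells of the dissected tissue held the RNA of each gene cannot be told from it. Nearest to Ascl5 were Fgf10, a growth factor gene (distance 0.12), Sall3 (0.24) and Plppr1 (0.27). Fgf10 had means of 19.1, 0.212 and 0.175 and Plppr1 of 16.7, 0.283 and 0.0893 in cervical loop, secretory and maturation populations in the authors' deposited table. Nearest to Sall3 were Ascl5 (0.24), Fgf10 (0.36) and Mpped1 (0.45). With a pseudocount of 0.1, Ascl5 and Sall3 were each other's nearest gene, at a distance of 0.15.

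Sall1 was nearest to Crym, which encodes the thyroid hormone binding protein mu-crystallin (distance 0.16), Rspo4, a secreted enhancer of Wnt signalling (0.27), and the unnamed locus AABR07007068.1 (0.28). Crym had means of 18.6, 1.67 and 0.265 and Rspo4 of 13.3, 1.02 and 0.0432 over the 3 stages in the authors' deposited table. Sall2 was nearest to Fam196a (0.05), the collagen gene Col9a3 (0.05) and Slc12a5, a potassium and chloride cotransporter gene (0.07). Col9a3 had means of 15.9, 20.4 and 7.73 in the authors' deposited table, higher in the secretory than in the maturation population like Sall2. The gene sets changed with the pseudocount: with 0.1, Sfrp2, Rspo4 and Dkk1 were nearest to Sall1, and Adamts6, Col9a3 and Rps16 to Sall2.

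**Figure D4:**
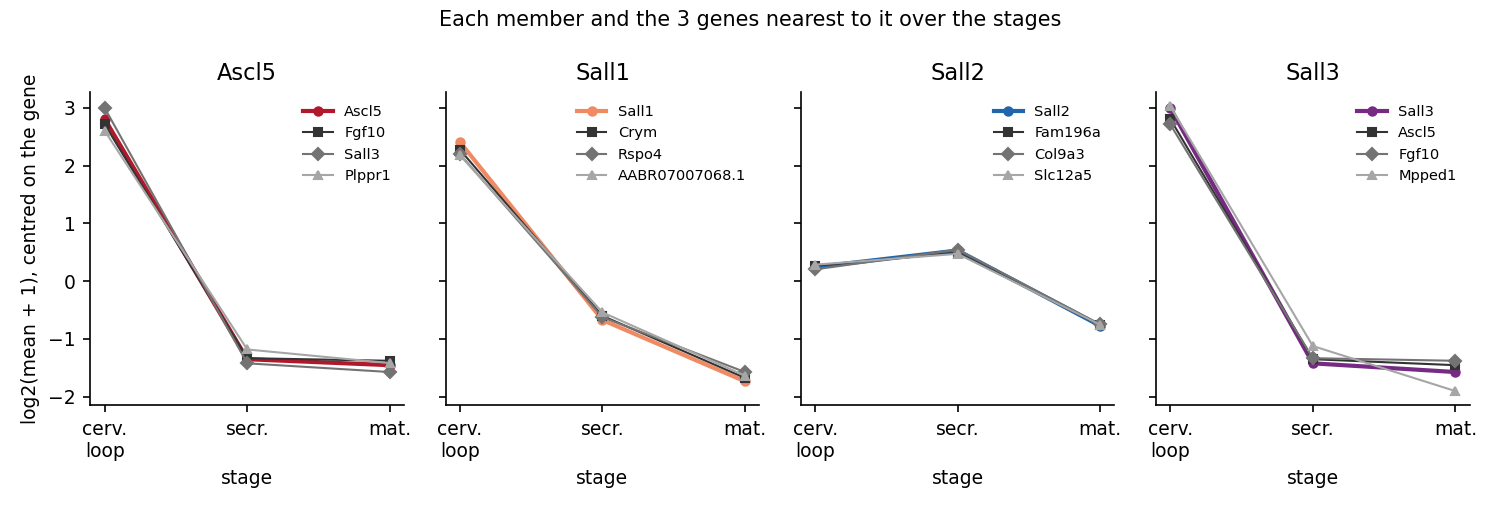
Centred log2(mean + 1) over cervical loop, secretory and maturation populations for each of Ascl5, Sall1, Sall2 and Sall3 (coloured) and the 3 genes nearest to it (grey). Ascl5 and Sall3 appear in each other's panel at a distance of 0.24, and the Sall2 panel shows the secretory stage as the highest point.

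The relatives Ascl2, Ascl4 and Sall4 had means below 1 in every population. Ascl2, a bHLH gene of intestinal stem cells, rose in maturation ameloblasts: its mean of 0.984 was above 0.209 in secretory ameloblasts (4.7-fold, adjusted p = 0.00119) and 0.201 in the cervical loop (4.88-fold, adjusted p = 0.000663) in the authors' deposited table. With 1 added to each mean these folds were 1.64 and 1.65. Ascl4 stood at 0.324 in the cervical loop and at the floor in the later stages in the authors' deposited table, and passed as lower in secretory (adjusted p = 0.000902) and maturation ameloblasts (adjusted p = 0.000228). Sall4, a gene of pluripotent cells, stood at 0.796, 0.285 and 0.35 in cervical loop, secretory and maturation populations in the authors' deposited table and passed in no pair of stages (adjusted p = 0.0774 for secretory and 0.177 for maturation against cervical loop, and 0.43 for maturation against secretory).

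Genes for E proteins and Id proteins took mixed directions. Of these 7, in secretory ameloblasts against the cervical loop, Id2 rose, 2 fell and 4 stayed short of the threshold (median difference of log2(mean + 1) of -0.12). Of all genes 41.8% passed there, 16.5% as higher and 25.2% as lower. For maturation against cervical loop, 1 rose, 3 fell and 3 did not pass (median -0.43), where 57.8% of all genes passed, 24.1% as higher and 33.7% as lower. For maturation against secretory, 1 rose, 3 fell and 3 did not pass (median -0.17), where 21.8% of all genes rose and 21.1% fell. Tcf3, an E protein gene, fell at each stage, with means of 51.7, 34.3 and 21.6 over the 3 stages in the authors' deposited table (adjusted p = 0.00359 between secretory and cervical loop populations and 0.00176 between maturation and secretory). Tcf4 fell in maturation ameloblasts, 36.4 against 63.9 in secretory ameloblasts in the authors' deposited table (adjusted p = 0.00269), and Tcf12 (48.6, 44.6 and 44.0 over the 3 stages, adjusted p between 0.0744 and 0.789) passed in no pair.

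Among the Id genes, which encode inhibitors of E proteins, Id3 fell and Id4 rose in maturation ameloblasts against the cervical loop. For Id3 the means were 57.2 and 98.3 in the authors' deposited table (adjusted p = 0.0114). It also fell 2.07-fold in secretory ameloblasts against the cervical loop, with means of 47.5 and 98.3 in the authors' deposited table (adjusted p = 0.0067). Id4 rose in maturation ameloblasts to 137, against 13.1 in secretory ameloblasts (10.5-fold, adjusted p = 0.00109) and 6.65 in the cervical loop (20.6-fold, adjusted p = 0.000381) in the authors' deposited table. Id2 rose in secretory ameloblasts (23.4, with 15.3 in the cervical loop, adjusted p = 0.0308) and fell in maturation ameloblasts (13.1, with 23.4 in secretory ameloblasts, adjusted p = 0.00753) in the authors' deposited table. Id1 passed in no pair of stages (37.2, 30.8 and 27.4 in the authors' deposited table, with adjusted p between 0.0664 and 0.486). Thus at the stages where Ascl5 was near the floor, transcripts of 3 E proteins and 4 Id proteins were all still measured well above it, the lowest mean being 13.1.

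Subunits of NuRD, the complex that Sall proteins recruit, were present throughout. In secretory ameloblasts against the cervical loop 3 of the 14 rose, 4 fell and 7 did not pass (median difference of log2(mean + 1) of 0.04), counts near the 16.5% of all genes that rose and the 25.2% that fell. For maturation against cervical loop, 2 rose, 10 fell and 2 did not pass (median -0.30), where 24.1% of all genes rose and 33.7% fell. For maturation against secretory, 1 rose, 9 fell and 4 did not pass (median -0.24), where 21.8% of all genes rose and 21.1% fell. Division by the sum of each stage turned the direction of 2 of the passing genes for secretory against cervical loop (Mta2 and Gatad2b) and of 2 for maturation against secretory (Hdac1 and Gatad2b). The deacetylase gene Hdac2 was 1.69-fold lower in maturation than in secretory ameloblasts (26.2 and 44.3, adjusted p = 0.000429) and the remodeller gene Chd3 was 1.73-fold lower (92.3 and 160, adjusted p = 0.00118) in the authors' deposited table. Chd4, the other main remodeller, was 1.18-fold higher (223 and 189, adjusted p = 0.0149) in the authors' deposited table. Chd5 was 4.68-fold lower in secretory ameloblasts than in the cervical loop (0.222 and 1.04, adjusted p = 0.000517) in the authors' deposited table, at low levels.

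**Figure D5:**
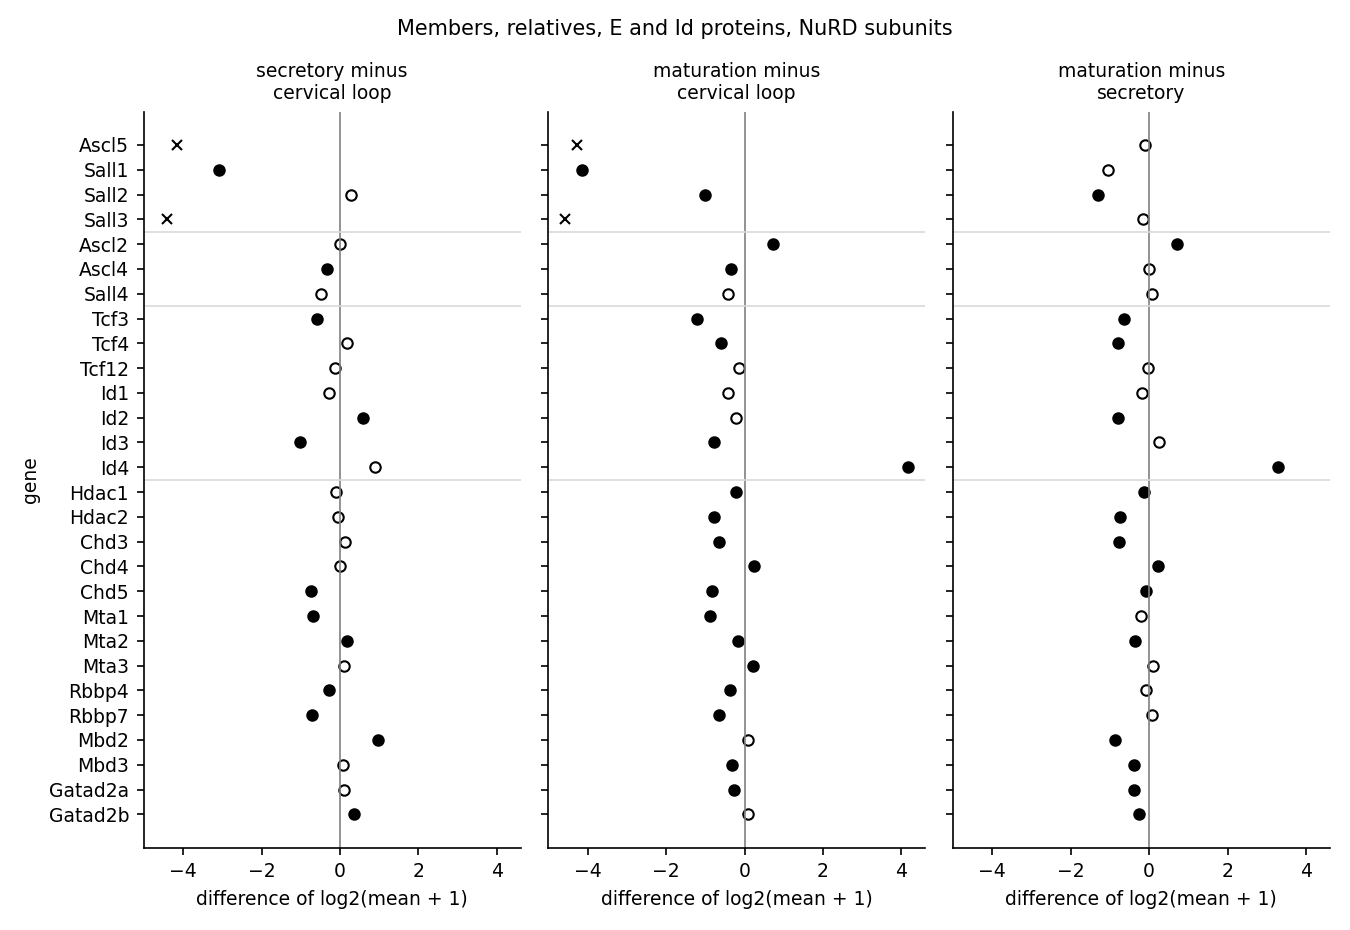
Difference of log2(mean + 1) for Ascl5, Sall1, Sall2 and Sall3, for their relatives, for E and Id protein genes and for NuRD subunits (rows) in the 3 pairs of stages (panels). Filled circles passed an adjusted p of 0.05, open circles did not, and crosses are Ascl5 and Sall3 in the contrasts that chose them. Against the cervical loop the crosses and Sall1 lie between -3.09 and -4.57, whereas Id4 reaches 4.17 for maturation minus cervical loop.

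Genes tied to Ascl5 or Sall3 in other systems were read in the same way. Of 8 genes for cadherins, p120 catenin and E-cadherin repressors, 1 rose, 2 fell and 5 did not pass for secretory against cervical loop, where 16.5% of all genes rose and 25.2% fell. For maturation against cervical loop 2 rose, 2 fell and 4 did not pass, where 24.1% of all genes rose and 33.7% fell. For maturation against secretory 3 rose, 1 fell and 4 did not pass, where 21.8% rose and 21.1% fell. E-cadherin (Cdh1), which AmeloD lowers in mouse dental epithelium, passed in no pair, with means of 171, 215 and 107 in cervical loop, secretory and maturation populations in the authors' deposited table (adjusted p = 0.333 for secretory and 0.232 for maturation against cervical loop, and 0.0588 for maturation against secretory). The E-cadherin repressor genes Snai1 and Zeb1 fell in secretory ameloblasts against the cervical loop, 3.41 against 7.93 for Snai1 (adjusted p = 0.00161) and 24.6 against 42.5 for Zeb1 (adjusted p = 0.0129) in the authors' deposited table. All 3 DNA methyltransferase genes fell in that comparison, where 25.2% of all genes did: Dnmt1, which maintains methylation as DNA is copied, stood at 22.3 against 65.4 (adjusted p = 0.000481), Dnmt3a at 25.8 against 33.1 (adjusted p = 0.018) and Dnmt3b at 1.14 against 3.77 (adjusted p = 0.00208) in the authors' deposited table. Dnmt1 was higher in maturation than in secretory ameloblasts, 28.1 and 22.3 in the authors' deposited table (1.26-fold, adjusted p = 0.0415).

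Genes of dividing cells were also lower outside the cervical loop, as Ascl5, Sall1 and Sall3 were, but none was at the floor. Their lowest mean was 1.04 in both later stages. All 10 were lower in secretory ameloblasts than in the cervical loop and past the threshold, where 25.2% of all genes were lower and 16.5% higher, and their summed means were 724, 113 and 117 over the 3 stages. Stem and progenitor genes of the cervical loop took mixed directions. Of these 8, 1 rose, 3 fell and 4 did not pass for secretory against cervical loop, where 16.5% of all genes rose and 25.2% fell. The median difference of log2(mean + 1) over the 8 was 0.16. The genes that fell were Sfrp5, which stood at 15.3, 0.312 and 0.968 over the 3 stages, the epithelial stem cell gene Sox2 at 3.33, 0.523 and 0.148, and Lgr5 at 0.427, 0.105 and 0.102 in the authors' deposited table. Igfbp5 rose 3.08-fold in secretory ameloblasts (1676 and 544 in the authors' deposited table, adjusted p = 0.00199), and Gli1, Bmi1, Lrig1 and Abcg2 had higher secretory means that did not pass. Of the 6 odontoblast and bone markers, 6 had lower means in secretory than in cervical loop populations, of which 0 passed, where 25.2% of all genes fell. For maturation against cervical loop 2 fell past the threshold (the dentin gene Dspp, and Phex) and 4 did not pass, where 33.7% of all genes fell. For maturation against secretory 1 fell past the threshold (Dspp) and 5 did not pass, where 21.1% of all genes fell. Dspp had means of 81.7, 22.2 and 0.0701 over the 3 stages in the authors' deposited table, the last below the floor. Of the 10 mesenchyme markers, 2 rose, 1 fell and 7 did not pass for secretory against cervical loop, where 16.5% of all genes rose and 25.2% fell. Division by the sum of each stage turned the direction of 1 of the passing markers (Fbn1). None of these 10 had a mean below 4.4 in any stage, which holds for this list alone. Of the 6 Schwann cell and nerve markers, 1 rose, 3 fell and 2 did not pass for secretory against cervical loop, against the same shares of all genes. Their summed means were 162, 100.1 and 77.2 over the 3 stages. The part of these other cells and of cell division in the levels of Ascl5, Sall1 and Sall3 was not tested.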

How the data were processed

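RNA of the 3 dissected populations was sequenced as single-end reads of 75 bases, 25000000 per library, per the labels. The submitters' processing notes name STAR 2.5.3a, Partek and build rn6. How genes were annotated, filtered, normalised and modelled is not given in the sources used here. The authors deposited least-squares stage means, treated here as a score because their unit is not stated, with p-values, FDR and the ratio of means for each pair of stages, per the file headers. The counted reads per gene are unknown, so no counting interval is given. The total per gene weighted the stage means by 3.99 (cervical loop), 3.99 (secretory) and 5.01 (maturation), close to 4, 4 and 5 libraries. The labels name 5 rats and leave out a cervical loop library alone, so the secretory number differs from the labels, and this was not settled.

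Benjamini-Hochberg adjustment of the deposited p-values ran over all 16516 genes (threshold 0.05), which equalled the authors' FDR within rounding, with direction from the means. This function was tested on simulated data. Means below 0 (3 secretory genes) were set to 0 on the log2(mean + 1) scale. Transcript FDR values are the authors'. Named genes were the 4 members, their 3 nearest genes each, all genes of lists of up to 8, and for longer lists the 2 passing genes with the smallest p in each direction and pair. The members and lists were chosen with earlier results of these data known. RefSeq windows came from GRCr8. Python 3.11.15, pandas 2.3.3, NumPy 2.4.6, SciPy 1.17.1 and matplotlib 3.10.9 were used.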

Additional observations from a re-analysis of the deposited data

How the results depend on the processing

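The number of members past the threshold in each pair of stages was the same with the adjustment limited to genes with a largest stage mean of at least 1. It was also the same with the authors' own FDR and with direction from the deposited ratio. Neither of these could change it, because the FDR equals the adjustment used here and the ratio is that of the same means. The counts against the cervical loop include Ascl5 and Sall3, which were chosen on those contrasts. Of 60 recomputed log2 ratios of the members, 59 kept their sign, but most of these settings could hardly turn one. Pseudocounts of 0.1 and 1 cannot turn a sign. The stage lists as source differed from the means by at most 0.238%, and scaling by the 75th percentile shifted log2 ratios by at most 0.02. Scaling by the sum of each stage could turn a sign, and with it Sall2 for secretory against cervical loop turned to -0.19. That scaling moved the median log2 ratio of all genes to -0.63 (-0.14 as deposited) for secretory against cervical loop, to -0.27 (-0.12) between maturation and cervical loop, and to 0.34 (0.00) between maturation and secretory ameloblasts. The genes nearest to a member were the same in 3 of 8 recomputations and changed in 5. No paired analysis was possible because only stage means are held, and leaving out single libraries was not possible for the same reason. Depth per gene is unknown, and below the floor of 0.1 a level cannot be told from none.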

Other observations

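Other transcription factors of dental epithelium took varied courses. Of 14 such genes, 2 rose, 5 fell and 7 did not pass for secretory against cervical loop, where 16.5% of all genes rose and 25.2% fell. For maturation against secretory 3 rose, 7 fell and 4 did not pass, where 21.8% of all genes rose and 21.1% fell. For maturation against cervical loop 4 rose, 7 fell and 3 did not pass, where 24.1% of all genes rose and 33.7% fell. Foxi3, a forkhead gene of ectodermal organs, was low in maturation populations, with 0.265 there and 11.3 in the cervical loop (42.6-fold lower, adjusted p = 0.000407) in the authors' deposited table, and 2.74 in secretory ameloblasts. Bcl11b fell 2.96-fold in maturation ameloblasts against the cervical loop (11.9 and 35.3, adjusted p = 0.0001) in the authors' deposited table. Sp6, the epiprofin gene, stayed high in secretory ameloblasts (286, with 253 in the cervical loop, adjusted p = 0.602) and fell 4.89-fold to 58.4 in maturation ameloblasts (adjusted p = 0.000752) in the authors' deposited table. Isl1 rose 3.39-fold (82.1 and 24.2, adjusted p = 0.000872) and Klf5 8.98-fold (49.3 and 5.49, adjusted p = 0.00822) in maturation ameloblasts against the cervical loop in the authors' deposited table.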
